A study of Drosophila melanogaster with 3 samples.

Results

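The anterior-posterior segmentation genes of Drosophila melanogaster were followed through a chromatin immunoprecipitation sequencing (ChIP-seq) experiment on CG12219, a gene that goes by its annotation number. The set holds 30 of the 13968 protein-coding genes of the annotation, taken by name as 15 maternal and gap genes, 11 pair-rule genes with the paralogues of odd, and 4 segment genes. The group sampled consisted of whole embryos, both sexes pooled, aged 0 to 18 h, from a transgenic line in which CG12219 carries green fluorescent protein (GFP) at the C-terminus of its product, and it is represented by 3 biological replicates. One line of the labels describes the samples as input controls, whereas their assay title, their antibody entry (given as CG12219), a control listed as another experiment and the deposited peak lists describe immunoprecipitations, and they are treated as such here. No mock or untagged immunoprecipitation was used here, and the number of reads behind each list is unknown. Whole embryos pool all cells and ages, so a site occupied in few cells and a site occupied weakly in many cannot be told apart.

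Segmentation proceeds through a cascade in which maternal gradients place the gap gene domains, gap proteins shape the stripes of the pair-rule genes, and pair-rule proteins set the borders at which segment genes are kept on. These genes encode transcription factors, apart from nos, which encodes a translational repressor. Many of them are driven by enhancers that lie several kilobases from the promoter, each active in its own stripe or domain, so both promoters and the DNA around the genes were examined.

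Peak summits were found at 12 of the 30 segmentation genes (40.0%), and mostly away from their start sites. The peaks that passed the step of irreproducible discovery rate (IDR) make up the IDR list, which holds 4187 of them, ranked by signal so that rank 1 is the highest. A summit within 500 bp of a transcription start site (TSS) was counted at that TSS, and any other summit was called distal and given to the gene with the nearest TSS. By these rules 20.8% of all protein-coding genes had a summit in the IDR list. At a TSS, 5 segmentation genes had one (16.7%), against 14.3% of all protein-coding genes, and the genes were bcd, fkh, cnc, hry and sob. A distal summit was given to 11 segmentation genes (36.7%), against 9.17% of all protein-coding genes, and these were bcd, knrl, fkh, oc, ems, cnc, hry, odd, opa, slp2 and en. The share at start sites was close to the background, and the share with a distal summit was above it. Of the 12 genes, 4 had both kinds (bcd, fkh, cnc and hry), 7 had only distal summits and 1, sob, had only a TSS summit. Together they held 22 summits, of which 16 were distal (72.7%, against 56.7% of all IDR summits), and each was the summit of 1 gene.

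The genome sequence under 9 of these summits shows the range of DNA that was covered, from G+C-rich promoter DNA to A+T-rich intergenic DNA. Each window spans 101 bp centred on the summit and is read 5′ to 3′ from the plus strand of the RefSeq genome (Release 6, the dm6 build). Capitals mark runs of at least 6 bases that are all A or T, and copies of the word GGTCACACT. The first 4 windows are those of the strongest TSS summit of 4 of the 5 genes that had one, without hry, whose summit lies in an exon: upstream of fkh (chr3R:28585455-28585555), in an intron of cnc (chr3R:23189998-23190098), upstream of bcd (chr3R:6759613-6759713) and upstream of sob (chr2L:3580851-3580951). The other 5 are the strongest distal summits of 5 genes: upstream of slp2 (chr2L:3832467-3832567), beyond the 3′ end of oc (chrX:8627318-8627418), beyond that of ems (chr3R:13914916-13915016), upstream of hry (chr3L:8672700-8672800) and beyond the 3′ end of fkh (chr3R:28570953-28571053).
fkh, TSS summit: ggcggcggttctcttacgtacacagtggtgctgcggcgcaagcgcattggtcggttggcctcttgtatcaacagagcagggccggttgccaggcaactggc
cnc, TSS summit: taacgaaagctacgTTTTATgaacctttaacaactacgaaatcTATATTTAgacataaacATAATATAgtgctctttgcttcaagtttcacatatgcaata
bcd, TSS summit: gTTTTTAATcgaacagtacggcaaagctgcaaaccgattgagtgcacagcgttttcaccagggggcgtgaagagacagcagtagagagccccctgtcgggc
sob, TSS summit: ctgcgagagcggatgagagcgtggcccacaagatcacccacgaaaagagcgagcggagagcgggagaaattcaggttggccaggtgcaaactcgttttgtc
slp2, distal summit: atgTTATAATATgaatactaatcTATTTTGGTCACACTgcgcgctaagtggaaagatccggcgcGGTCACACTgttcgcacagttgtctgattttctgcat
oc, distal summit: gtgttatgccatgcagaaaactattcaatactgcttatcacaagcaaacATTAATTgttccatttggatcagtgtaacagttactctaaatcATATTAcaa
ems, distal summit: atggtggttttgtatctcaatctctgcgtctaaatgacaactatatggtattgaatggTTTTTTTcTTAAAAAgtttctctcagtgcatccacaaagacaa
hry, distal summit: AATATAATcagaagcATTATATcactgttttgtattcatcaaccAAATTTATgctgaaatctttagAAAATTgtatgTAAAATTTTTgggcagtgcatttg
fkh, distal summit: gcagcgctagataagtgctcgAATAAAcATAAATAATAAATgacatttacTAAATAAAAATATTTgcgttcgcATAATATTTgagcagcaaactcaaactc
Of the TSS windows, those of fkh and sob contain no such A+T run, that of bcd has 8 of its bases in one and that of cnc has 22. Of the distal windows, those of oc, ems and slp2 have 13, 14 and 15 bases in such runs, and those of hry and fkh have 39 and 43. The TSS and distal windows thus overlap in this count. The slp2 window is the one of the 9 that holds GGTCACACT, in 2 copies.

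Among the maternal genes, bcd was the one with IDR summits, while nos and cad had none. bcd encodes the homeodomain morphogen of the anterior pole. Its TSS summit lay at -197 bp (negative offsets are upstream; chr3R:6759468-6759857). Its IDR rank was 3696, and it was placed at 2231, 6451 and 2106 by replicates 1, 2 and 3. The distal summit, at -1513 bp (chr3R:6760784-6761173), ranked 3432, and 6410, 2225 and 5920 in the replicates. The order of the replicates was thus opposite at these neighbouring summits: replicate 2 placed the upstream one high and the promoter one low, and replicates 1 and 3 did the reverse. nos had its best pooled call at -352 bp, with rank 5490 in the pooled list and 4809, 6297 and 11150 in the replicates. cad, which encodes a posterior homeodomain protein, came closest to the IDR list of all the genes left outside it, with a call at -147 bp of pooled rank 4306, and 6043, 7264 and 2146 in the replicates.

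Of the 5 gap genes of the trunk (hb, Kr, kni, knrl and gt), knrl was the only one with an IDR summit. It encodes a nuclear receptor closely related to that of kni, its neighbour on the chromosome. Its summit lay inside an intron of knrl, 19825 bp downstream of the TSS (chr3L:20600639-20601028), with rank 3370. It ranked 10197, 4514 and 1940 in replicates 1, 2 and 3, the widest spread among the 22 summits, with its lowest-placed rank 5.26 times its best. kni had 9 and Kr 7 calls in the pooled list, and their best ones ranked 10168 and 7446 there. hb and gt, which encode a zinc finger protein and a basic leucine zipper protein, had no pooled call at all. In single replicates hb had calls of best rank 11217 in replicate 1 and 11357 in replicate 2 and none in replicate 3, and gt had 1 replicate with a call, replicate 1, at rank 12648.

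The terminal genes act at the ends of the embryo and in the gut that forms there. fkh encodes a forkhead factor of the gut and salivary gland, and it carried the highest-ranked TSS summit of the set. This summit lay at -241 bp (chr3R:28585378-28585589) with IDR rank 632, and ranked 307, 1194 and 414 in replicates 1, 2 and 3. A distal summit lay 14109 bp downstream of the TSS, in intergenic DNA beyond the 3′ end of the gene (chr3R:28570808-28571197), with rank 2376 and replicate ranks of 2427, 3625 and 1527. Both fkh summits were among the first 4187 calls of all 3 replicates, with replicate 2 giving the lowest place each time. tll and hkb, which encode the terminal gap repressors, had pooled calls of best rank 20507 and 25081, deep in a list that holds 30000 calls including background.

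The head genes had the most summits: oc, ems and cnc held 3 each, and btd held none. oc (orthodenticle) and ems encode homeodomain proteins that specify head segments. The strongest at oc lay 15808 bp downstream of its nearest TSS, beyond the 3′ end of the gene (chrX:8627294-8627495), with rank 900 and replicate ranks of 1130, 949 and 954. A second lay upstream at -6061 bp (chrX:8656665-8656841) with rank 1242 and replicate ranks of 1526, 1347 and 1212. These summits were placed alike by all replicates, whereas the third oc summit, at 18171 bp (chrX:8624810-8625199, rank 3893), ranked 1923 and 2625 in replicates 1 and 3 and 9097 in replicate 2. At ems a pair of summits lay beyond the 3′ end, at 13113 bp (chr3R:13914815-13915005, rank 1089) and 14012 bp (chr3R:13915779-13915899, rank 2203). The first ranked 1247, 1095 and 915 in replicates 1, 2 and 3, and the other 3534, 2109 and 1934, so all of these ranks lay within the first 4187. The upstream ems summit at -8835 bp (chr3R:13892823-13893212, rank 3159) ranked 4944, 3132 and 3839.

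cnc encodes a basic leucine zipper protein with a role in the mandibular segment and, in a longer form, in the response to oxidative stress. It has 10 annotated TSS, more than any other gene of the set, and its summits lay at different ones. A summit inside an intron, 371 bp downstream of one TSS (chr3R:23189965-23190158), had rank 813 and was placed at 923, 774 and 887 by replicates 1, 2 and 3. Another at -230 bp (chr3R:23226746-23227135) had rank 3075, with 4280, 3162 and 6126 in the replicates. The remaining one is distal by a margin of 13 bp, at -513 bp in an intron (chr3R:23201018-23201407), with rank 3907 and replicate ranks of 2885, 6683 and 4294. The summits at 371 and -513 bp are the nearest to the 500 bp limit on its inner and outer side. btd, which encodes a zinc finger protein of the head, had its best pooled call at -4 bp with rank 21798.

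**Figure D1:**
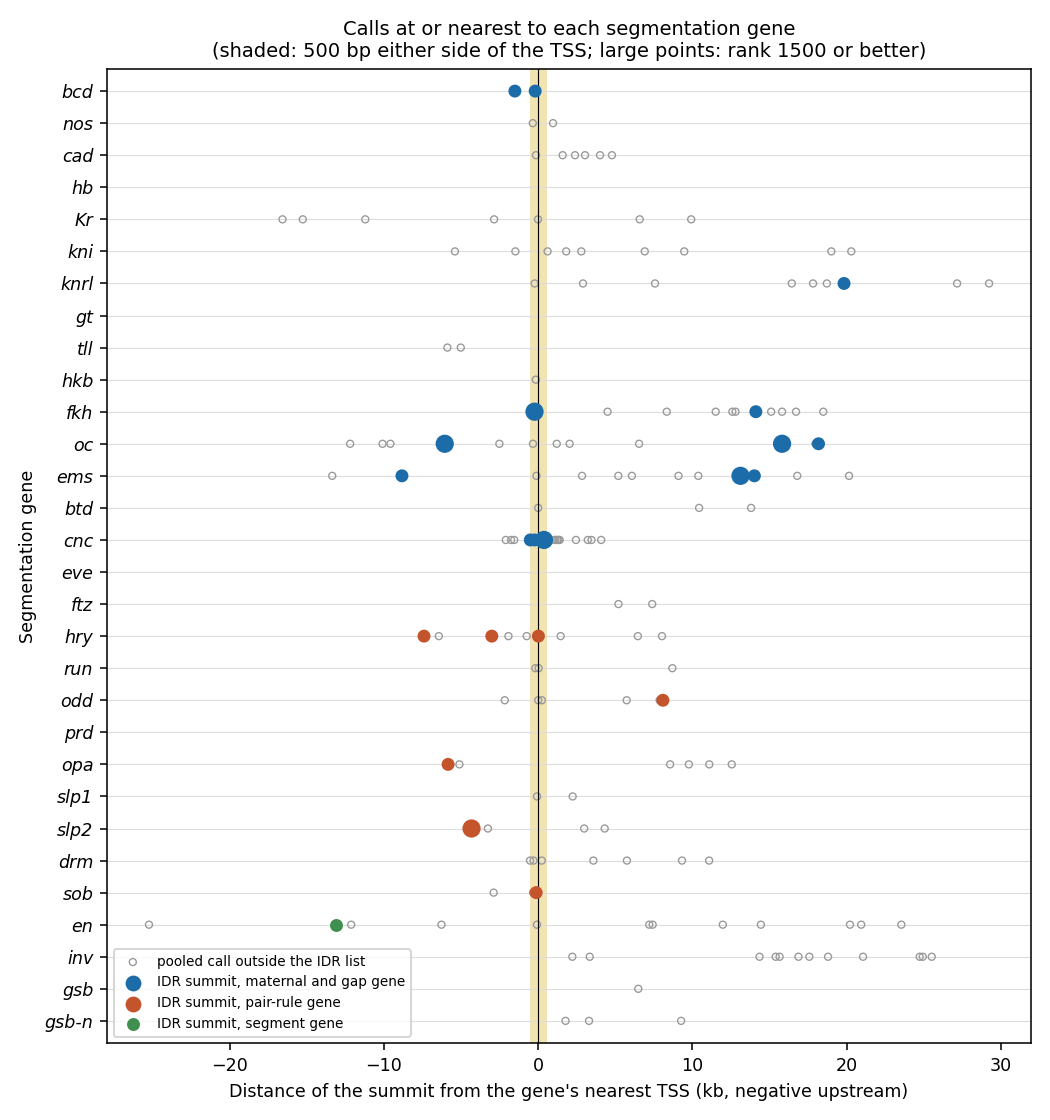
Each row is a segmentation gene in order of role, and the x axis gives the distance of a summit from the gene's nearest TSS in kb (negative is upstream), with filled points for IDR summits, larger where the rank is 1500 or better, open points for pooled calls outside the IDR list and shading for 500 bp either side of the TSS. The filled points lie in 12 of the 30 rows, 16 of the 22 outside the shaded band, and the rows of hb, gt, eve and prd are empty.

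Among the 11 pair-rule genes and odd paralogues, 5 had an IDR summit: hry, odd, opa, slp2 and sob. The strongest summit of all 30 genes was that of slp2, a forkhead gene that acts beside its neighbour slp1 in late stripes. It lay at -4323 bp from the slp2 TSS, between slp1 and slp2 (chr2L:3832378-3832658), with rank 118 and a signal of 1240.4 in the authors' units. It ranked 104, 130 and 145 in replicates 1, 2 and 3, the smallest places of any summit of the set in every replicate. It also lay 6.84 kb from the TSS of slp1, whose own best call, 2233 bp downstream of its TSS, had pooled rank 5806 and ranked 3064 in replicate 2, but 23441 and 21557 in replicates 1 and 3.

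hry (hairy), a basic helix-loop-helix repressor and primary pair-rule gene, had 3 summits. The TSS summit at 11 bp, in an exon outside the coding sequence (chr3L:8675575-8675964), ranked 3746, and 1677, 5490 and 2758 in replicates 1, 2 and 3. Of the upstream summits, that at -3009 bp (chr3L:8672555-8672944) ranked 2254, and 2345, 3200 and 2403 in the replicates. The other, at -7404 bp (chr3L:8668160-8668549), ranked 3777, and 4224, 4181 and 5605. The replicates thus placed the summit at -3009 bp much alike, and the TSS summit far apart, with replicate 2 lowest.

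odd and opa encode zinc finger proteins, the first expressed in stripes and the second broadly across the trunk. The odd summit lay 8085 bp downstream of the TSS, past the 3′ end (chr2L:3598476-3598865), with rank 3117 and replicate ranks of 4930, 3552 and 3108. The opa summit lay at -5843 bp (chr3R:4846775-4847164), with rank 2701 and replicate ranks of 3695, 3060 and 2281. Both were lowest in replicate 1. sob, a paralogue of odd, had a summit at -132 bp (chr2L:3580706-3581095) of rank 3827, and 6257, 3337 and 4354 in the replicates, while drm, the other paralogue, had a best pooled call of rank 6615.

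The primary stripe genes eve and run and the genes ftz and prd had no IDR summit. eve and prd had no pooled call either, and each had a call in 1 replicate only, replicate 1, at ranks 20757 and 25467. ftz, a homeodomain pair-rule gene, had its best pooled call 5201 bp downstream at rank 6673, with 15702, 5129 and 18815 in the replicates, and run, a Runt-domain gene, had one at -185 bp at rank 13718. Stripe genes of the same class thus ranged from hry, with 3 summits, to eve and prd, with no pooled call. The DNA in which a distal call could be given to them differed too, with 20.5 kb at hry, 2.60 kb at eve and 1.15 kb at prd.

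Among the 4 segment genes, en alone had an IDR summit. en and its neighbour inv encode homeodomain proteins of the posterior compartment. The summit lay 13101 bp upstream of en, in intergenic DNA (chr2R:11541116-11541505), with rank 2934 and replicate ranks of 2134, 4804 and 3446. inv came near the limit, with a call in its intron 24730 bp from the TSS of pooled rank 5263 that ranked 6551, 3382 and 4061, so it was among the first 4187 calls in replicates 2 and 3 but not in replicate 1. gsb and gsb-n, which encode paired-domain proteins, had best pooled calls of rank 20114 and 25247.

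By block, the maternal and gap genes had an IDR summit in 6 of 15 cases (40.0%), the pair-rule block in 5 of 11 (45.5%) and the segment genes in 1 of 4, against 20.8% of all protein-coding genes. Distal summits were given to 6, 4 and 1 genes of these blocks, and TSS summits to 3, 2 and 0. With so few genes in each, no block is set above another.

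All 22 summits had a counterpart within 250 bp in every replicate list, shifted by at most 217 bp. Of the 4187 IDR peaks, 4086 had a counterpart within 250 bp in every replicate list. These lists include background calls, so such a match is not particular to segmentation genes. The replicates differed in how high they placed the 22 summits. The number of replicates that placed a summit among their first 4187 calls, the length of the IDR list, was 3 for 10 summits, 2 for 6 and 1 for 6. Over the whole IDR list, 60.0% of peaks were placed so by all 3 replicates. The ratio of the lowest to the highest place of a summit among the replicates ranged from 1.19 to 5.26, with a median of 1.86. Summits of segmentation genes stood in the lower part of the IDR list, with a median rank of 3004.5, against 2094.0 for all IDR peaks. The distal ones had a median rank of 2817.5 (2161.0 for all distal IDR summits) and the TSS ones 3385.5 (2001.0 for all TSS summits). Of the 22, 4 were among the first 1000 of the 4187 peaks, 6 were among the upper 2093 and 11 ranked after 3000.

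**Figure D2:**
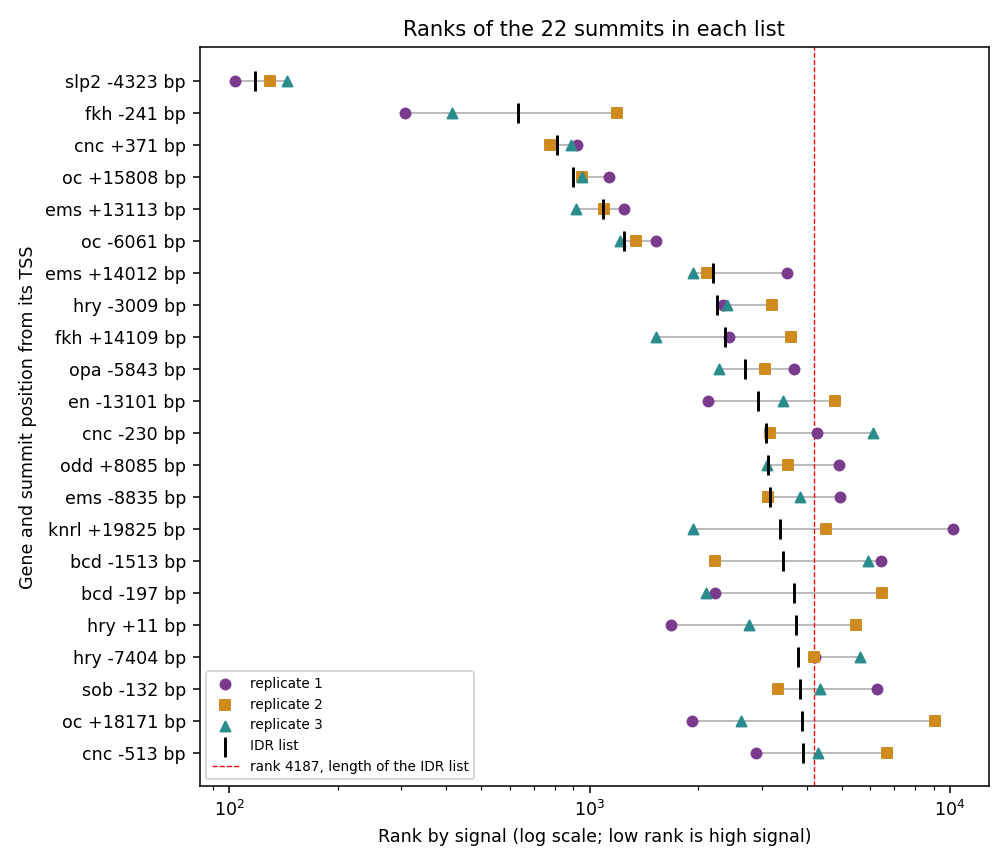
Rank by signal on a log axis (low rank is high signal) for each of the 22 IDR summits, ordered by IDR rank, with a symbol for each of the 3 replicates, a bar for the IDR list and a dashed line at rank 4187. The slp2 summit has ranks of 104 to 145 in all replicates. In all, 10 summits stay short of the dashed line in every replicate. The others cross it, among them those at knrl, bcd and oc (18171 bp).

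The counts held to different degrees in single replicates. Taking the first 4187 calls of each replicate, a TSS summit was found at 5 segmentation genes in replicate 1, 3 in replicate 2 and 7 in replicate 3, against 14.6%, 14.0% and 14.4% of all protein-coding genes. Distal summits were given to 8, 11 and 11 segmentation genes in replicates 1, 2 and 3 (26.7%, 36.7% and 36.7%), against 8.90%, 9.33% and 9.26% of all protein-coding genes. Either kind was found at 9, 12 and 13 segmentation genes, against 20.5%, 20.7% and 20.8%. The distal share was above the background in each replicate, and the TSS share was below it in replicate 2. In the pooled list at any rank, 18 segmentation genes had a TSS call (60.0%, against 44.8%), 25 a distal call (83.3%, against 35.7%) and 26 either (86.7%, against 59.3%). Of the 18 segmentation genes without an IDR summit, 14 had such a pooled call and 4 had none.

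**Figure D3:**
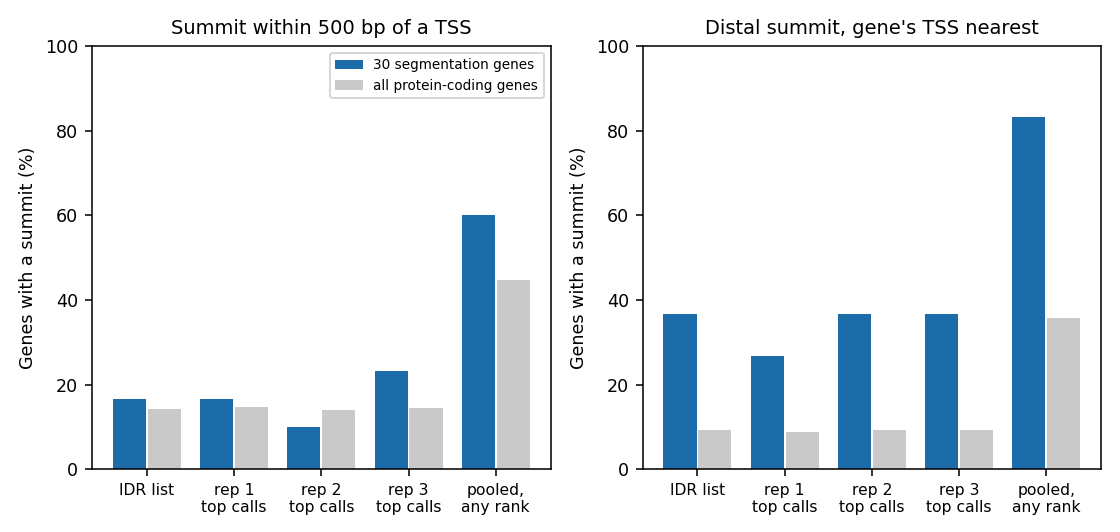
Percent of the 30 segmentation genes (blue) and of all protein-coding genes (grey) with a summit within 500 bp of a TSS (left) or a distal summit (right), in the IDR list, in the first 4187 calls of each replicate and in the pooled list at any rank. The left bars are of similar height in the IDR list (16.7%, against 14.3%), and the right ones differ in every list.

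The segmentation genes have more DNA around them than most genes. Over all protein-coding genes, the share with a distal summit rose with the amount of such DNA. The stretch of genome nearest to a gene's TSS and over 500 bp from any TSS, called its territory here, had a median of 13.4 kb for segmentation genes, against 2.71 kb for all protein-coding genes. Among genes with 20 to 40 kb, 6 of 10 segmentation genes had a distal summit, against 34.2% of all protein-coding genes, and with 10 to 20 kb 2 of 10 did, against 23.5%. In territories of 5 to 10 kb 1 of 4 had one (slp2), against 14.6%, and in those of 1 to 5 kb 1 of 4 (bcd), against 4.35%. en, with the largest territory (52.3 kb), had a distal summit, as did 39.8% of all genes with over 40 kb, and nos, with the smallest (0.820 kb), had none. Among genes of like territory the segmentation genes were thus above the background in some classes and below it in the class of 10 to 20 kb, each with at most 10 genes.

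**Figure D4:**
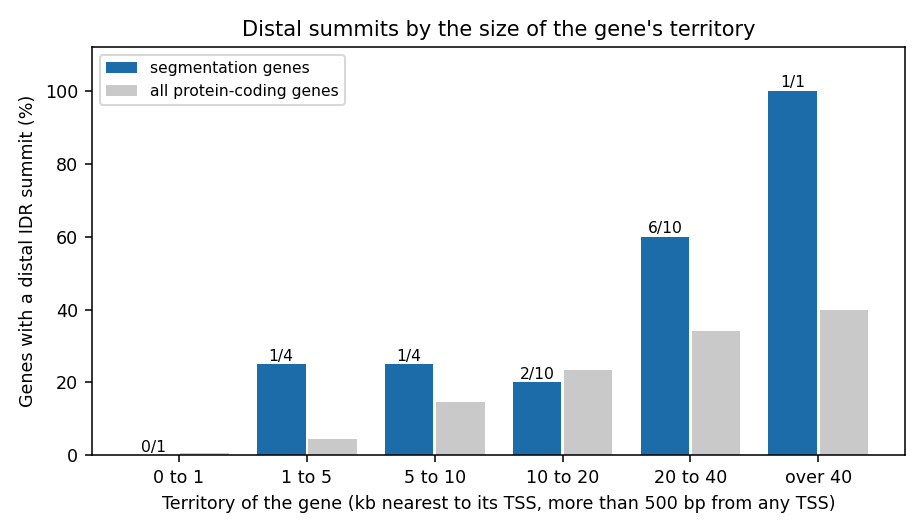
Percent of genes with a distal IDR summit in classes of territory size in kb, for segmentation genes (blue, with the number of genes with a summit over the number in the class) and all protein-coding genes (grey). The grey bars increase with territory from 0.564% to 39.8%, and the blue bars rest on 1 to 10 genes each.

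Per 10 kb of territory, segmentation genes had 0.299 distal IDR summits (exact Poisson 95% interval 0.171 to 0.486, counting error only), against 0.199 (0.191 to 0.207) over the whole genome and 0.213 over the territories of protein-coding genes. The genome value lies inside the interval of the segmentation genes, so a difference in density was not detectable with 16 summits. The pooled list at any rank includes background calls. In it the 139 distal calls of segmentation genes made 2.60 per 10 kb (2.19 to 3.07), against 1.80 (1.77 to 1.82) over the genome. The genome value lies below this interval of the segmentation genes. All of these intervals treat calls as independent, though calls can cluster, as at cnc with 14 of the 139 in 32.4 kb of territory. Whether the difference in the pooled list holds without that assumption was not tested. In the upper 2093 peaks of the IDR list by signal the order turned, with 0.0748 per 10 kb at segmentation genes (0.0204 to 0.192, from 4 summits), against 0.0961 over the genome, a value inside that interval. Within the set the head genes had 0.585 per 10 kb (0.235 to 1.21), the pair-rule block 0.394 (0.128 to 0.919), the trunk gap genes 0.0913 (0.00231 to 0.509) and the segment genes 0.0884 (0.00224 to 0.493). These intervals overlap one another, and the groups were not tested against each other.

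Distal summits of segmentation genes lay farther from the TSS than distal IDR summits as a whole. At segmentation genes the distance had a median of 8460 bp (513 to 19825 bp), against 2535.5 bp over all distal IDR summits. The territory of a gene limits this distance, and its median was 13.4 kb for segmentation genes and 2.71 kb for all protein-coding genes. Distances were not compared among genes of like territory. Upstream of the TSS lay 9 of the 16, and 7 downstream, while over the whole list 40.9% of distal summits were upstream. Of the 16, 14 were intergenic and 2, those of knrl and cnc, lay in an intron of the gene itself. None lay in an exon or in an intron of another gene. The matching shares over all distal IDR summits were not counted. In 7 cases the distance was over 10 kb. Giving a distal summit to the nearest TSS is a convention, and which gene such a site acts on was not measured.

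Counting instead any IDR summit within 10 kb of a TSS, whichever gene it was given to, a setting added with the data in view, turned the order: 14 of the 30 segmentation genes (46.7%) had one, against 52.1% of all protein-coding genes. Of the 18 genes without a summit of their own, 4 (nos, btd, slp1 and drm) had one within that distance. Over the 18, the distance from the TSS to the nearest IDR summit had a median of 18.60 kb and reached 59.23 kb, at Kr, followed by 48.69 kb at hkb, 35.50 kb at run, 34.82 kb at tll and 32.30 kb at gt. Of the segment genes, gsb-n had 31.98 kb, inv 23.73 kb and gsb 22.35 kb. The distance was 19.40 kb at eve, 17.80 kb at hb, 17.77 kb at prd, 17.47 kb at ftz, 15.32 kb at kni and 10.10 kb at cad, where the summit lay inside the span of cad and was given to Pomp. Among all protein-coding genes without an IDR summit of their own, on the chromosomes that hold IDR peaks, the median was 13.54 kb, with quartiles of 6.01 and 29.41 kb.

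Threshold settings moved the counts most. With only the upper 2093 IDR peaks, 5 segmentation genes had a summit, against 12.1% of all protein-coding genes, with 2 at a TSS (7.84%) and 3 with a distal one (5.23%). With the 2512 IDR peaks among the first 4187 calls of all 3 replicates, 7 had a summit (13.7% of all genes), 2 at a TSS (8.92%) and 6 distal (6.11%). The number of TSS per gene also bears on the TSS count: 2 of 18 segmentation genes with 1 TSS had a TSS summit, against 9.79% of all such genes, 2 of 11 with 2 to 3 (24.1%), and 1 of 1 with 4 or more (46.4%).

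The summits of segmentation genes covered a wide range of base composition. In the 101 bp around the summit, A+T ranged from 37.6% at the fkh TSS to 76.2% in the knrl intron. The median was 66.3% over the 22 summits, as over all IDR peaks (66.3%, quartiles 59.4 and 72.3%). The 6 TSS summits had a median of 44.0%, against 65.3% over all TSS summits of the IDR list, and the 16 distal ones 66.3%, against 67.3%. The TSS summits of cnc lay above the other 4, with 71.3% at 371 bp and 51.5% at -230 bp. Below 50% A+T, a class chosen after the data were seen, lay 6 of the 22 summits (27.3%), against 8.29% of all IDR peaks. They were the TSS summits of fkh, bcd, hry and sob, and the distal ones of oc at 18171 bp and cnc at -513 bp.

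The places that replicates gave these summits differed between the classes below and above 50% A+T. Replicate 2 gave the lowest place to 5 of the 6 summits under 50% A+T, as it did to 59.9% of all such IDR peaks, and to 3 of the other 16, against 28.2%. Replicate 1 gave the lowest place to 10 of those 16, against 46.5%. The log2 ratio of the rank in replicate 2 to that in replicate 1 had a median of 1.62 over the 6 (0.86 over all IDR peaks under 50%) and -0.25 over the 16 (-0.31). sob was the exception among the 6, with a ratio of -0.91. Over all IDR peaks at 50 to 60% A+T the median was 0.66, so the cut at 50% does not mark where the sign changes. Library composition was not measured, and the part of base composition in these ranks was not tested.

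**Figure D5:**
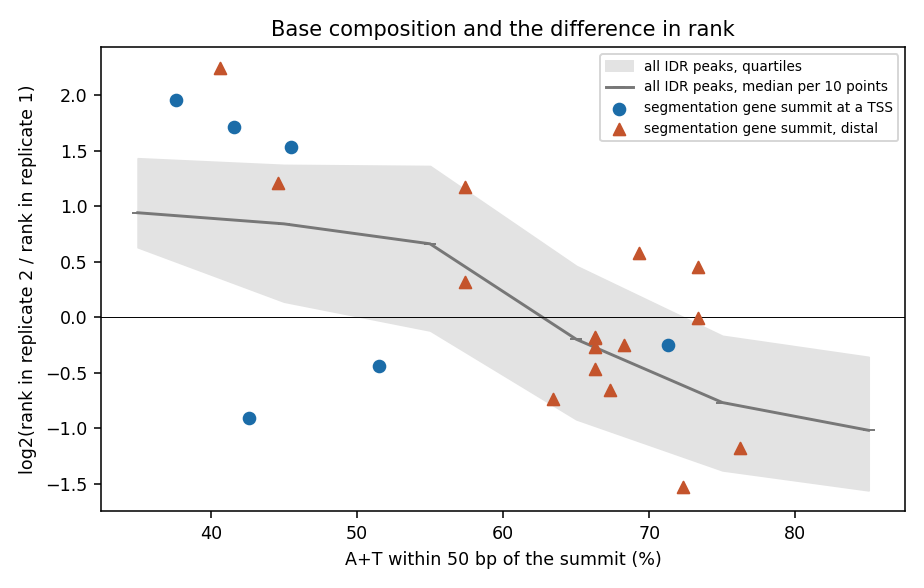
The x axis gives A+T in the 101 bp around a summit (%), and the y axis gives the log2 ratio of its rank in replicate 2 to that in replicate 1, for segmentation gene summits at a TSS (circles) and distal ones (triangles), with the median and quartiles of all IDR peaks per 10 points of A+T as line and band. The line runs from 0.94 at 30 to 40% A+T to -1.02 at 80 to 90%, and 5 of the 6 summits under 50% lie above 0.

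The letters that 8 factors of the early embryo are known to bind were searched under these summits, and 5 of the 8 words had no match. On both strands of the 201 bp around each of the 22 summits, the words CAGGTAG (Zelda), TATCGATA (the DNA replication-related element), TAATCC (Bicoid), AACGGGT (Kruppel) and TCAAGG (Ftz-F1) were absent, and they occurred in 0.979%, 1.67%, 5.68%, 1.17% and 5.21% of all IDR peaks. The word of the Trithorax-like factor, GAGAGAG, was found in 2, oc at 18171 bp and sob (9.09%, against 5.13%). TTTTTTT (Hunchback) was found in 2, oc at 15808 bp and ems at 13113 bp (9.09%, against 20.5%), and TTTATTG (Caudal) in 1, knrl (4.55%, against 9.60%). At least 1 of the 8 words occurred in 5 of the 22 summits (22.7%), against 41.6% of all IDR peaks. Within 50 bp of the summit this was 1 of 22, against 22.5%. A missing word says only that these letters are not in the window. AAATAT and GGTCACACT, the core of the promoter element Motif 1, were added after the data were seen. AAATAT occurred in 9 (40.9%, against 49.4%), and GGTCACACT in 1, slp2 (4.55%, against 0.979%), the strongest of the 22.

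Other genes of anterior-posterior patterning were counted by the same rules. Of 24 such genes, 3 had a TSS summit (exu, gro and nkd; 12.5%, against 14.3% of all protein-coding genes) and 11 a distal one (45.8%, against 9.17%). The corepressor gene gro had the best rank, 186, followed by ptc, the Hedgehog receptor gene (450), D, a Sox gene (466), and cic, a repressor gene of the terminal system (489). Their 26 distal summits made 0.569 per 10 kb of territory (exact Poisson 95% interval 0.372 to 0.834), against 0.199 over the genome. The 8 Hox genes, which act on the segments that this cascade lays down, had no TSS summit, and 4 had a distal one (lab, Antp, abd-A and Abd-B), at 0.293 per 10 kb (0.108 to 0.638). The genome value lies below the interval of the 24 patterning genes and inside those of the segmentation genes and the Hox genes. The intervals of the segmentation genes, the 24 patterning genes and the Hox genes overlap one another.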

How the data were processed

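ChIP-seq peaks were measured in 3 replicates of 1 group. Per the deposited file listing, a list was called on each replicate's alignments with a control alignment, a pooled list came from all 3 replicates, and the IDR list was derived from these. The replicate and pooled lists include background calls. Coordinates are dm6, per the labels. Which aligner, peak caller and IDR cutoff were used is not given in the sources used here. Each peak's signal is the authors' value with no stated normalization and was used only for ranks within a list. The deposited −log10 q values broke ties. Summit offsets are the authors' too. Sequencing depth is unknown, since the lists hold no read counts, and intervals cover counting error only.

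TSS came from Ensembl release 115 (BDGP 6.54), with 18277 genes, and sequence from RefSeq on 7 chromosomes whose lengths match. Of the 30 names 29 matched by symbol and 1, nos, by an older symbol (nanos). The members and lists (24 other patterning genes and 8 Hox genes) were chosen with earlier results of these data known, so they are described by counts beside those of all protein-coding genes, without tests. Every member with an IDR summit is described, the rest by their best pooled call. Sequences are of the strongest summit per gene outside arm 2R, with no exon in the window. A replicate's call counted as the same within 250 bp. Assignment and matching were tested on simulated data. Python 3.11.15, numpy 2.4.6, scipy 1.17.1, pandas 2.3.3 and matplotlib 3.10.9 were used. Alternatives varied the TSS window, the threshold, the competing genes, the replicates, the matching distance and the word window, and counting any IDR summit within 10 kb was added after the data were seen.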

Additional observations from a re-analysis of the deposited data

How the results depend on the processing

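The counts of segmentation genes with an IDR summit (5 at a TSS, 11 distal, 12 either, with 16 distal summits and 0.299 per 10 kb) moved most with the threshold. With the upper 2093 peaks they were 2, 3 and 5 genes, 4 distal summits and 0.0748 per 10 kb. With the first 8374 pooled calls they were 11, 15 and 19 genes (24.1%, 15.2% and 32.4% of all protein-coding genes), 34 distal summits and 0.636 per 10 kb (0.418 over the genome). With the 2512 peaks among the top calls of all 3 replicates they were 2, 6 and 7 genes, 8 distal summits and 0.150 per 10 kb (0.118 over the genome). The exact Poisson interval was 0.441 to 0.889 with the first 8374 pooled calls, and the genome value lies below it. With the upper 2093 peaks (0.0204 to 0.192) and the 2512 peaks (0.0646 to 0.295) the genome value lies inside the interval. These intervals treat calls as independent. The density comparison thus depended on the threshold. Leaving out each replicate in turn did not redo the IDR step. Calls matched within 250 bp between the remaining replicates were ordered by their worse rank, and the first 4187 were kept. In these lists 4 to 7 genes had a summit at a TSS, 9 to 10 a distal one and 11 to 12 either. They held 14 to 17 distal summits of segmentation genes, at 0.262 to 0.318 per 10 kb. TSS windows of 250 or 1000 bp gave 5 genes at a TSS and 10 to 11 distal. With TSS of protein-coding genes alone, 13 genes had a distal summit (11.1% of all). Words were found in 5 summits within 100 bp and 1 within 50 bp. Matching replicate calls within 100 bp left 11 of 12 genes with all summits found in all replicates. No paired analysis was possible because there is only 1 group.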

Other observations

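Several IDR peaks around segmentation genes, from rank 18 to rank 3676, were given to other genes. The nearest peak to eve, at 19.40 kb, is among the strongest of the list (rank 18) and lies at the TSS of Pal1 and Pdrg1. The nearest to btd, at 6.46 kb, ranked 130 and lies at the TSS of lncRNA:CR42657. Around sob, 3 distal peaks lay within 10 kb of its TSS, with ranks 788 and 1058 (given to lncRNA:CR43822) and 1006 (given to lncRNA:TS2), all above the rank of the sob peak itself (3827). Within 10 kb of fkh, peaks of rank 3276 and 3676 were given to lncRNA:CR43440 and lncRNA:CR43126, and the peak nearest to drm (4.59 kb, rank 2655) to lncRNA:CR44308. Whether any of these peaks acts on the neighbouring segmentation gene was not tested.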
